A study of Mus musculus with 12 samples.

Results

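Thyroid hormone receptors and genes that carry, activate or answer the hormone were followed in livers of mice with and without METTL5, an enzyme that methylates an adenosine of 18S rRNA. The 8 genes Thra, Thrb, Rxra, Ncor1, Slc16a10, Dio1, Thrsp and Klf9 were taken by name, out of 10607 genes with both input and ribosome-protected fragment (RPF) values and 55487 genes in the input counts. All 8 were present in both and passed the filters on low values. The rule names them and sets no threshold on a value, though the names were chosen with earlier results of these data known.

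Ribosome profiling was performed on livers of 3 wild-type (WT) mice and 3 Mettl5 knockout (KO) mice, 1 of each genotype from each of 3 litters, with an input and an RPF library per mouse. Input, RNA kept back before nuclease treatment and then depleted of rRNA, gives the abundance of transcripts, and RPF give the ribosomes on them. KO mice carried a deletion of a floxed exon 2 made in the whole body with the CMV-cre transgene, in a line begun from C57bl/6 x 129S6 hybrid ES cells and backcrossed to B6. Whether the WT littermates carried the transgene or a floxed allele, and each mouse's age, sex and time of collection, are not given in the sources used here. The deletion was not limited to the liver, and hormone levels are not among the values analysed here.

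Thyroid hormone enters hepatocytes through membrane transporters, and deiodinases turn the prohormone T4 into the active T3 or inactivate both. T3 binds the nuclear receptors encoded by Thra and Thrb, of which the β receptor is the main form in hepatocytes. These receptors sit on DNA with a retinoid X receptor, recruiting corepressors such as NCOR1 without the hormone and coactivators with it, and liver genes such as Thrsp and Dio1 are classical positive targets.

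Input totals were 8326325 to 11825643 counts per mouse, of which a gene of 18S rRNA took 45.8% to 63.8%, leaving 2077408 to 4745069 counts on other genes. RPF libraries held 4623826 to 9184242 reads, and their median gene had 61.0 to 111 of them. Mettl5 itself had 21, 18 and 12 input counts in WT mice 1, 2 and 3 and 13, 7 and 5 in KO mice, and its RPF fell by 2.64 on the log2 scale (adjusted p = 0.00504, limma), with 56 to 103 reads in WT and 9 to 12 in KO mice. Its input difference was −1.59 (edgeR, unadjusted p = 0.00351, adjusted p = 0.999). Hepatocyte markers summed to 22340 to 29790 CPM (counts scaled to the size of the library) in WT and 22790 to 24700 in KO livers. Xist was at 0 in all 6 mice and Y-linked transcripts were present in all 6.

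Dio1 encodes the type 1 deiodinase, a selenoprotein, in which an in-frame UGA is read as selenocysteine and not as a stop. In the annotated coding sequence this is codon 126 of 257, at chr4:107297700-107297702 on the minus strand of mm10. It is shown here because the recoding of this codon is a step of translation particular to selenoproteins, with the TGA in capitals and 60 bases on each side.
Dio1: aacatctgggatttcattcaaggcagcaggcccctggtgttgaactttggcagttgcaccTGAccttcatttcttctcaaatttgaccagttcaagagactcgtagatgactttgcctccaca

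The 8 genes spanned a wide range of abundance in liver. Input per length, as RPKM (CPM divided by exonic kilobases), was highest for Thrsp, at 14.03 to 48.6 over the 6 mice, followed by Rxra at 15.4 to 20.2. Dio1 (3.78 to 12.4) and Klf9 (6.28 to 10.5) came next, and then Slc16a10 (4.05 to 5.25), Ncor1 (1.89 to 2.596), Thrb (1.66 to 2.43) and Thra (0.742 to 1.25). The ranges of Thrsp and Rxra, of Dio1 and Klf9, of Dio1 and Slc16a10, and of Ncor1 and Thrb overlapped, so their order is not set beyond the spread of the mice. Those of Rxra and Dio1, Klf9 and Slc16a10, Slc16a10 and Ncor1, and Thrb and Thra did not overlap.

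Footprints gave a partly different order. Normalized RPF reads per kilobase of coding sequence were 1818 to 5252 for Thrsp and 274.9 to 494.9 for Rxra, and 225.2 to 366.5 for Slc16a10. Dio1 ranged from 97.3 to 443.7 and Klf9 from 155.4 to 230.7. Thrb (35.5 to 51.2) and Ncor1 (21.2 to 26.2) stood well below them, and Thra (12.2 to 23.3) was the lowest, overlapping Ncor1. In RPF, unlike in input, the lowest Thrb value lay above the highest Ncor1 value.

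None of the 8 genes passed the test between genotypes in input, RPF or translation efficiency (TE), the ratio of RPF to input. In input, 0 of 8 had an adjusted p under 0.05 (edgeR, quasi-likelihood), where 0 of 10057 genes tested (0%) did, and 0 of 8 had an unadjusted p under 0.05, against 3.46% of all genes. In RPF, 0 of 8 passed in limma, where 44 of 8994 genes (0.489%) did, and 1 of 8, Slc16a10, had an unadjusted p under 0.05, against 13.4%. In TE, with input and RPF of a mouse not paired, 0 of 8 passed, as did 0 of 8994 genes (0%). There, 0 of 8 had an unadjusted p under 0.05, against 4.7%. In whole liver, fewer cells of a type and less RNA per cell cannot be told apart in any of these values. DESeq2 on input counts and edgeR on RPF reads called none of the 8 either. Fold changes of the 8 had medians of −0.015 in input, 0.10 in RPF and 0.17 in TE on the log2 scale, beside −0.0004, −0.033 and −0.011 over all genes tested.

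**Figure D1:**
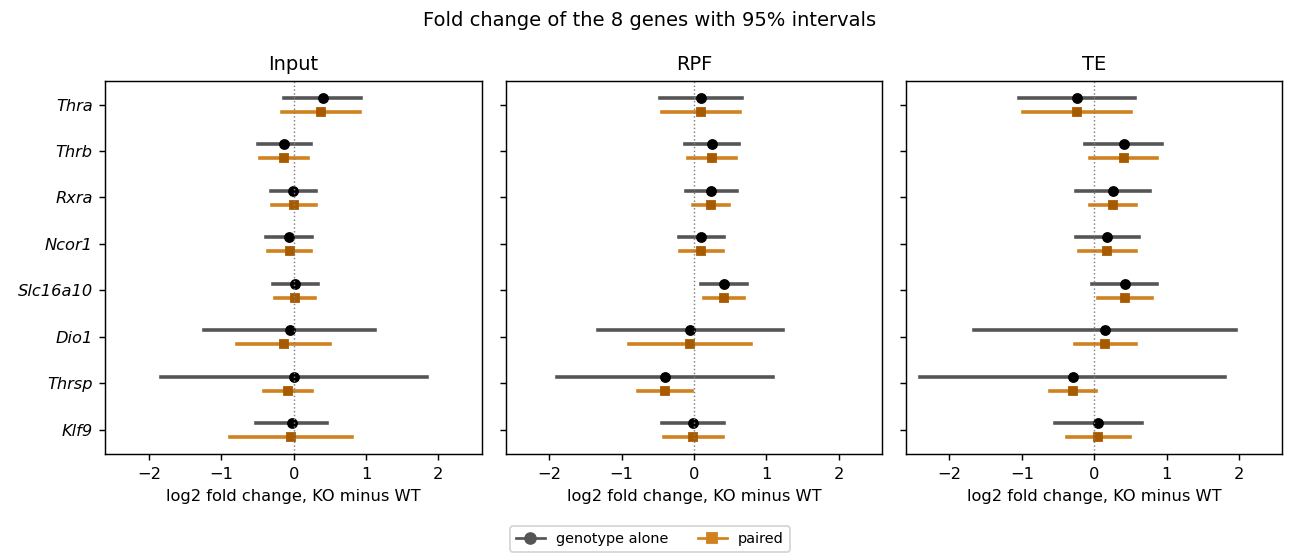
Log2 fold change, KO minus WT (x axis), of each of the 8 genes in input, RPF and TE, with 95% intervals from the fit on genotype alone (circles, grey) and from the paired fit (squares, orange; litter as a term for input and RPF, mouse for TE). Intervals of Thrsp and Dio1 on genotype alone are the widest and shorten with pairing, and Slc16a10 in RPF is the one interval on genotype alone that leaves out 0.

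Slc16a10 encodes MCT10, a transporter of aromatic amino acids and thyroid hormones. Its input was 32.7, 36.3 and 29.8 CPM in WT mice 1, 2 and 3 and 31.5, 38.6 and 30.1 CPM in KO mice 1, 2 and 3. Its normalized RPF values were 345.9, 365.2 and 432.7 in WT and 433.7, 533.0 and 562.9 in KO mice. Abundance overlapped between genotypes, as it did for all 8 genes (0 of 8 without overlap, beside 8.56% of genes tested), whereas all KO mice had more footprints than all WT mice, though the lowest KO value and the highest WT value nearly met. The difference was 0.42 on the log2 scale (SE 0.15, 95% interval 0.099 to 0.73), with an unadjusted p of 0.0129 and an adjusted p of 0.232 in limma.

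Within litters the KO mouse exceeded its WT littermate in Slc16a10 RPF by 0.33, 0.54 and 0.38 on the log2 scale, and in TE by 0.46, 0.48 and 0.36. Its TE relative to the median gene was −0.43, −0.48 and 0.055 in WT and 0.023, −0.0030 and 0.42 in KO mice on the log2 scale. The groups overlapped in TE, since WT mouse 3 lay above KO mice 1 and 2. The TE difference was 0.42 (SE 0.21, unadjusted p = 0.0627, adjusted p = 0.998, limma), and with the mouse as a block its unadjusted p was 0.0294 and its adjusted p 0.535. With litter as a term the RPF difference had an adjusted p of 0.0958 in limma, and over all alternatives the lowest was 0.0778. Between genotypes lay 65.8% of the variance of its RPF, against 20.8% for the median gene.

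Slc16a10 was 1 of 8 genes (12.5%) whose RPF did not overlap and was higher in KO, beside 6.97% of all genes tested. RPF was higher in the KO mouse of all 3 litters for 4 of 8 genes, Thrb, Ncor1, Rxra and Slc16a10, against 17.4% of all genes, and TE for 3 of 8, Thrb, Rxra and Slc16a10, against 15.2%. These genes come from the same 6 livers and are not independent of each other. Summed stellate cell markers were also higher in KO livers, at 74.3 to 85.1 CPM against 61.5 to 70.9 in WT. None of the 5 markers was at 0 in all mice, and 3 of the 4 tested were higher in input. Summed erythroid markers were lower, at 40.1 to 43.5 against 43.6 to 56.7 CPM, and so were sex-linked ones, at 50.9 to 51.8 against 53.1 to 58.0 CPM. Sums of hepatocyte, Kupffer cell, endothelial, cholangiocyte and lymphocyte markers overlapped. Of single genes tested in input, 8.56% did not overlap, in either direction. The part of these marker sums in these results was not tested.

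**Figure D2:**
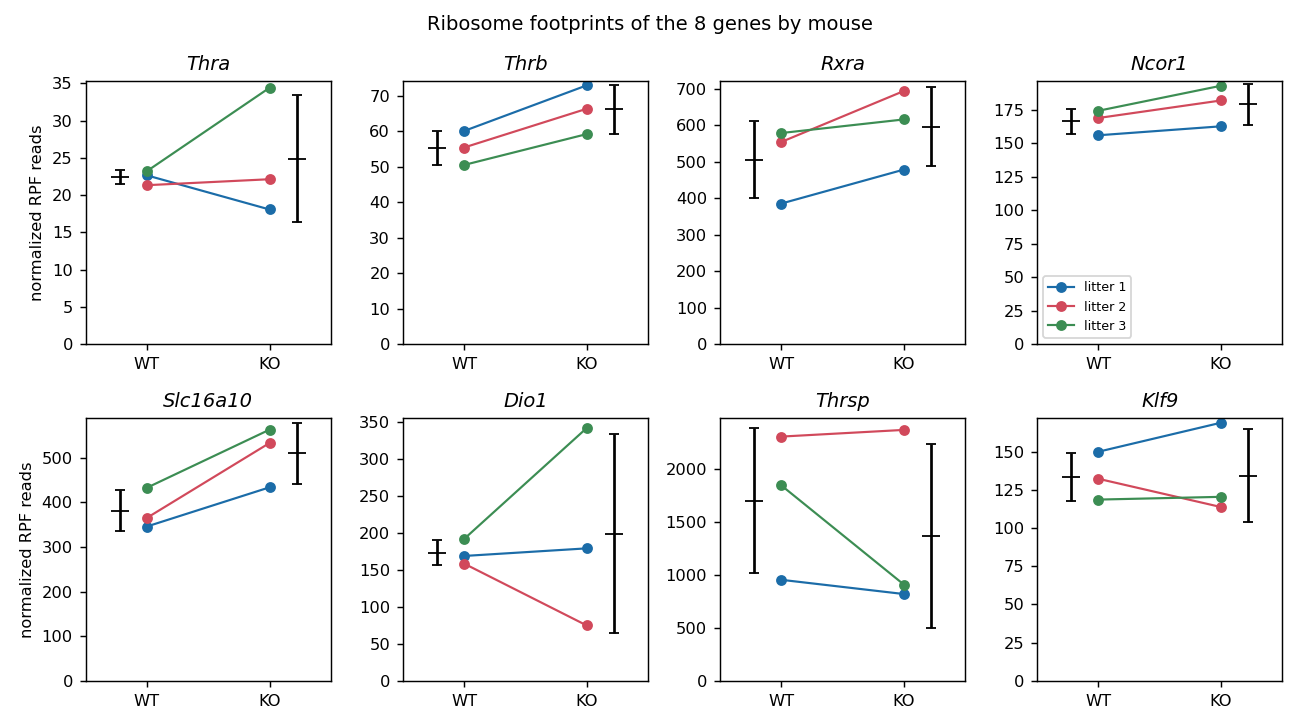
Normalized RPF reads (y axis, from 0) of the 8 genes in WT and KO livers. Points are mice, lines join littermates, and black bars give the mean and SD of 3 mice per genotype. Slc16a10 is the one gene with no overlap, Thrb and Ncor1 are higher in KO in each litter with small steps, and Thrsp and Dio1 spread widely.

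Dio1 sits at the activating step, and it varied strongly between mice. Its input was 13.5, 15.1 and 20.4 CPM in WT mice 1, 2 and 3 and 15.7, 7.45 and 24.4 CPM in KO mice. Its normalized RPF was 169.0, 158.7 and 191.9 in WT and 179.3, 75.0 and 342.1 in KO mice. KO mouse 2 was the lowest and KO mouse 3 the highest of the 6 in both, so the WT values lay inside the KO range. The KO mouse differed from its littermate by 0.22, −1.01 and 0.26 in input and by 0.085, −1.07 and 0.83 in RPF on the log2 scale.

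The within-genotype SD of Dio1 was 0.64 in input and 0.78 in RPF on the log2 scale, above those of 92.8% and 98.2% of genes. Its genotype difference of −0.057 in input had a 95% interval of −1.24 to 1.13 and its RPF difference of −0.052 an interval of −1.33 to 1.23, both with adjusted p-values above 0.97 (edgeR and limma). In input that interval runs from 0.423-fold to 2.18-fold. The TE of Dio1 moved less than either of its parts, from −0.57 to −0.19 in WT and −0.46 to −0.0025 in KO mice relative to the median gene on the log2 scale.

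Thra encodes the α receptors, and its values were low. Its input was 3.57, 3.64 and 3.65 CPM in WT and 5.13, 3.42 and 5.78 CPM in KO mice 1, 2 and 3, from 26 to 100 counts. Its RPF rested on 25 to 45 reads per mouse, and normalized RPF was 22.7, 21.3 and 23.2 in WT and 18.1, 22.1 and 34.4 in KO mice. The WT mice were close to each other, and KO mice 1 and 3 lay above them in input while KO mouse 1 lay below them in RPF. Differences of 0.40 in input (95% interval −0.14 to 0.94) and 0.096 in RPF (−0.47 to 0.66) did not pass. The annotated Thra gene overlaps the antisense gene Nr1d1, which encodes the clock repressor REV-ERBα, by 1075 bases. Input counting used the strand, and whether RPF counting did is not given in the sources used here.

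Thrb encodes the β receptors. Its input was 2.43, 2.16 and 1.68 RPKM in WT mice 1, 2 and 3 and 2.02, 2.01 and 1.66 RPKM in KO mice. Its normalized RPF was 60.1, 55.5 and 50.5 in WT and 73.0, 66.4 and 59.3 in KO mice. In each litter the KO mouse had slightly less transcript and more footprints than its littermate, and both measures overlapped between genotypes. The litter steps in RPF were alike, at 0.28, 0.26 and 0.23 on the log2 scale.

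TE of Thrb relative to the median gene was −2.10, −2.01 and −1.78 in WT and −1.47, −1.63 and −1.54 in KO mice on the log2 scale. All KO mice thus lay above all WT mice, the only such case among the 8 genes in TE (12.5%, beside 6.27% of all genes tested). The TE difference was 0.41 (SE 0.25, 95% interval −0.12 to 0.94, unadjusted p = 0.126, adjusted p = 0.998, limma), so it did not pass. With the mouse as a block the SE was 0.22, the unadjusted p 0.0848 and the adjusted p 0.655 (limma). Its RPF difference was 0.25 (SE 0.18, adjusted p = 0.574), and its input difference −0.13 (SE 0.17, adjusted p = 0.999, edgeR).

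Per length, Thrb transcripts exceeded Thra transcripts in each liver. The input ratio of Thrb to Thra was 3.14, 2.74 and 2.12 in WT and 1.81, 2.71 and 1.33 in KO mice. The RPF ratio, per coding length, was 2.75, 2.69 and 2.26 in WT and 4.19, 3.11 and 1.78 in KO mice. The β form therefore led in all 12 libraries, and the ratios of the genotypes overlapped in both assays.

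**Figure D3:**
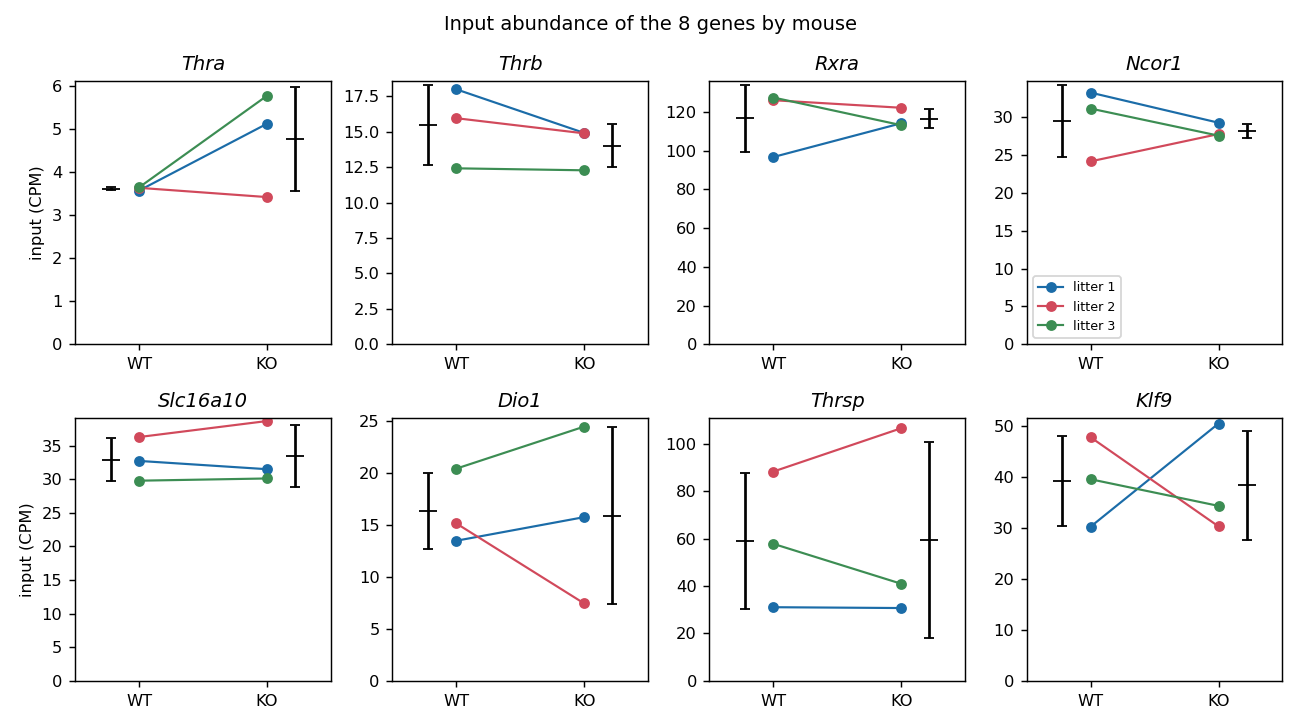
Input abundance (y axis, CPM, from 0) of the 8 genes in WT and KO livers. Points are mice, lines join littermates, and black bars give the mean and SD of 3 mice per genotype. All 8 genes overlap between genotypes, and the 2 mice of litter 2 hold the highest values of Thrsp.

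Rxra encodes the retinoid X receptor α, the partner of thyroid hormone receptors and of many other nuclear receptors. Its input was 96.8, 126.1 and 127.5 CPM in WT and 114.2, 122.2 and 113.2 CPM in KO mice 1, 2 and 3. Its normalized RPF was 385.1, 553.7 and 578.2 in WT and 478.2, 693.4 and 615.5 in KO mice. Litter 1 was low in RPF in both genotypes, and the KO mouse exceeded its littermate by 0.31, 0.32 and 0.090 on the log2 scale. The RPF difference was 0.24 (95% interval −0.12 to 0.60, adjusted p = 0.571, limma) and the input difference −0.0039 (−0.31 to 0.31). The RPF difference was 0.073 with GC and length trends removed and 0.057 without WT mouse 1. Per length, Rxra input was 4.79 to 8.19 times that of Thra and Thrb together.

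Ncor1 encodes the corepressor that the receptors bind without hormone. Its input was 33.3, 24.2 and 31.2 CPM in WT and 29.3, 27.8 and 27.6 CPM in KO mice. Its normalized RPF was 156.0, 168.9 and 174.3 in WT and 162.7, 182.0 and 193.0 in KO mice. Its footprints were among the steadiest in the liver, with a within-genotype SD of 0.11 on the log2 scale that only 6.87% of genes undercut. The RPF difference of 0.10 had a 95% interval of −0.20 to 0.41 (adjusted p = 0.806, limma), which leaves out a change beyond 1.33-fold upward.

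Thrsp encodes Spot 14, a lipogenic protein induced by thyroid hormone and by carbohydrate feeding. Its input was 31.1, 88.2 and 57.8 CPM in WT mice 1, 2 and 3 and 30.7, 106.5 and 40.9 CPM in KO mice. Its normalized RPF was 952.3, 2301 and 1842 in WT and 818.1, 2364 and 906.9 in KO mice. Both mice of litter 2 were high and both of litter 1 low, while in litter 3 the KO mouse had fewer footprints than its WT littermate.

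Litter took up 94.5% of the variance of Thrsp input and genotype 0.33%, where the median gene had 41.4% and 11.03%. The litter share was as high for Slc16a10 input, at 94.9%, and was 81.5% for Thrb input. The within-genotype SD of Thrsp input, 0.85 on the log2 scale, exceeded that of 97.4% of genes. On genotype alone the input difference was 0.0029 with a 95% interval of −1.83 to 1.84 (adjusted p = 0.999, edgeR). With litter as a term it was −0.077 with an interval of −0.41 to 0.25. The litter steps in input were −0.016, 0.27 and −0.50 on the log2 scale, of which those of litters 2 and 3 lay outside that interval, and leaving out 1 mouse at a time, without litter as a term, gave −0.73 (without KO mouse 2) to 0.41 (without WT mouse 2).

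In RPF the Thrsp difference was −0.40 (SE 0.65, adjusted p = 0.840, limma), and with litter as a term the SE was 0.18, the unadjusted p 0.0379 and the adjusted p 0.251, the lowest over all alternatives being 0.226. The litter steps were −0.22, 0.039 and −1.02 on the log2 scale, so that the KO mouse was lower by a wide margin only in litter 3. TE of Thrsp relative to the median gene was 1.10, 0.89 and 1.19 in WT and 0.97, 0.68 and 0.66 in KO mice. The KO mouse minus its littermate gave −0.13, −0.21 and −0.53, the only one of the 8 genes with TE lower in KO in all 3 litters (12.5%, beside 15.8% of all genes), and the genotypes overlapped. The TE difference of −0.29 had an adjusted p of 0.998, and of 0.622 with the mouse as a block (limma).

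Other genes were ranked by likeness to Thrsp over the 6 input libraries. Likeness was measured as the root mean square difference of log2 CPM, each gene centred on its mean of 6 mice, over 5712 genes with at least 50 counts on average. Such a ranking always has nearest genes, so their closeness is a description and was not tested. The measure takes in the size of changes as well as their shape, so a middle rank need not mean a shared pattern. The nearest were Nnmt (nicotinamide N-methyltransferase, 0.11), Cyp2a5 (a xenobiotic cytochrome P450, 0.21), Tedc2 (0.22), Upp2 (a uridine phosphorylase, 0.25) and Hsph1 (a heat shock protein, 0.25). Cyp2a5 has near-identical copies, so its unique counts are uncertain. Of the lipogenic genes, Fasn, which encodes fatty acid synthase, ranked 36th (0.43) and Srebf1, which encodes the lipogenic factor SREBP1, 79th (0.48). Elovl6 ranked 126th, Acaca 306th, Acly 668th, Pklr 760th and Me1 993rd, while Scd1 ranked 4106th and Mlxipl, which encodes the carbohydrate-responsive factor ChREBP, 5587th (1.10).

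**Figure D4:**
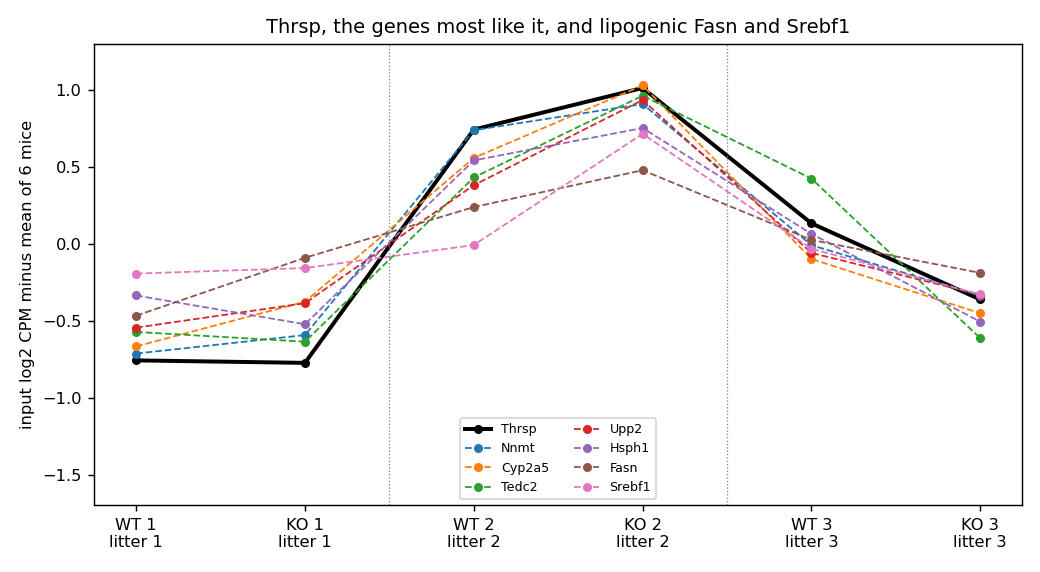
Input log2 CPM minus the mean of the 6 mice (y axis) for Thrsp (thick line), the 5 genes most like it, and lipogenic Fasn and Srebf1, by mouse in litter order. Dotted lines part the litters; Thrsp spans from −0.77 to 1.01 and both mice of litter 2 lie at the top of it.

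Both mice of litter 2, looked at because Thrsp was highest there, also held the highest input of Fasn (371.6 and 438.8 against 227.7 to 320.5 CPM in the other mice) and the lowest of Mlxipl (10.8 and 12.9 against 16.5 to 25.0 CPM). Of all genes tested in input, 7.58% were highest and 7.74% lowest in these 2 mice. Of 9 lipogenic genes tested, 5 were highest in these 2 mice, 1 was lowest, and Scd1, Me1 and Pklr overlapped. Of 12 clock genes tested, 5 were highest (Per2, Cry2, Nr1d2, Dbp and Tef), 2 were lowest (Arntl and Npas2), and Clock, Per1, Cry1, Nr1d1 and Hlf overlapped. The clock output gene Dbp stood at 6.45 and 3.62 CPM in them against 0 to 1.79 in the other mice, Per2 at 3.76 and 4.23 against 0.718 to 1.65, and Tef at 22.8 and 20.0 against 5.18 to 13.9. Dbp and Per2 rested on few input counts, 0 to 55 and 7 to 42 over the 6 mice. The time of collection and feeding state are not given in the sources used here, and their part in the Thrsp values was not tested. Between genotypes, 0 of 12 clock genes tested in input, 0 of 10 in RPF, and 0 of 9 lipogenic genes in either passed.

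Klf9 encodes a Krüppel-like factor that rises with thyroid hormone and with glucocorticoids. Its input was 30.2, 47.8 and 39.5 CPM in WT and 50.5, 30.3 and 34.3 CPM in KO mice 1, 2 and 3. Its normalized RPF was 149.9, 132.2 and 118.6 in WT and 168.9, 113.7 and 120.4 in KO mice. KO mouse 1 was the highest in both assays, and input differed in opposite directions between litters 1 and 2, by 0.74 and −0.65 on the log2 scale. In contrast to Thrsp input, litter took up only 1.40% of the variance of Klf9 input. In RPF the contrast was absent, with litter shares of 84.3% for Klf9 and 78.5% for Thrsp. Genotype differences of Klf9 were −0.026 in input (95% interval −0.52 to 0.46) and −0.0076 in RPF (−0.44 to 0.42).

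TE differed widely among the 8 genes. Relative to the median gene, WT means were 1.06 for Thrsp and −2.03 for Klf9 on the log2 scale. Because input covers whole transcripts, the ratio was also taken per length, with footprints per coding length and input per exonic length. Thrsp then had a WT mean of 1.85, above 93.2% of 10597 genes, and Slc16a10 one of 0.48 (65.8%). Dio1 stood at −0.53, Klf9 at −0.80, Thra at −1.04, Rxra at −1.04, Thrb at −1.08 and Ncor1 at −2.00, the last above only 6.63% of genes. The ratio of the 3 receptors lay in a narrow band in WT livers, below the median gene in each mouse.

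**Figure D5:**
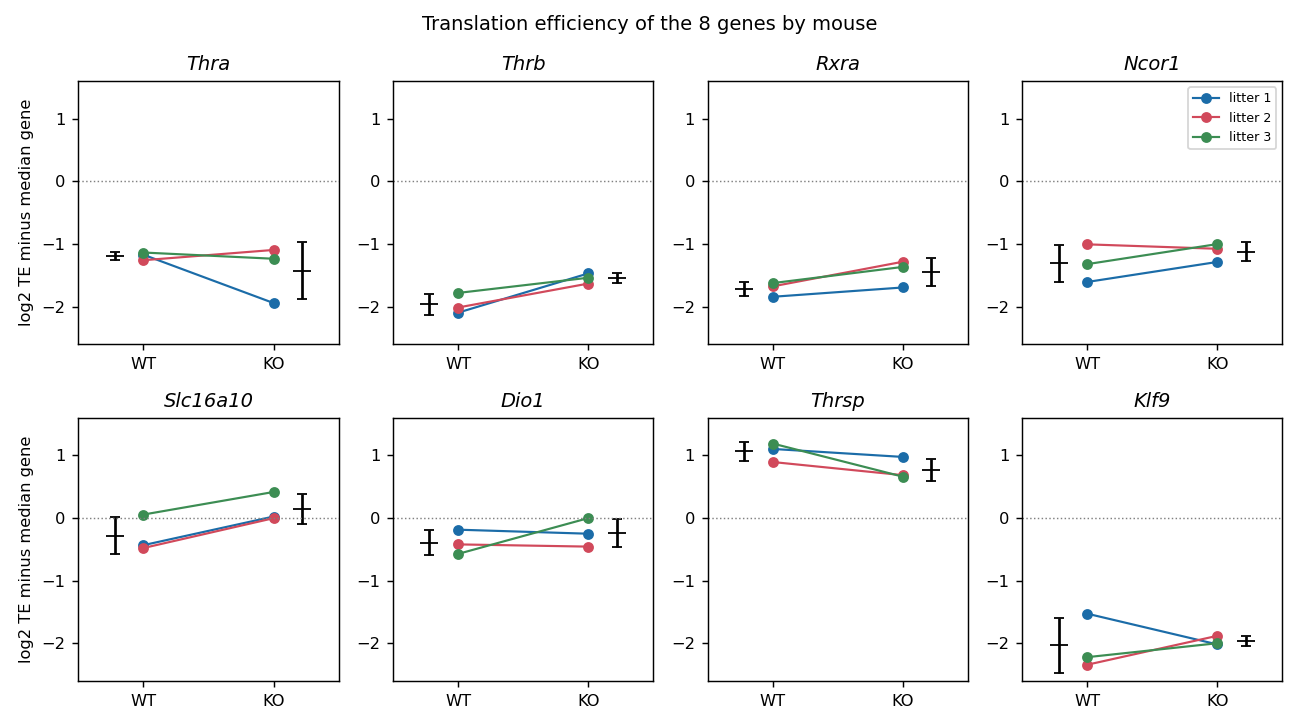
Log2 of RPF over input minus the median gene of the same mouse (y axis; dotted line, the median gene) for the 8 genes in WT and KO livers. Points are mice, lines join littermates, and black bars give the mean and SD of 3 mice per genotype. Thrsp lies above the median gene in all 6 mice, the receptors, Ncor1 and Klf9 below it, and Thrb is the one gene with no overlap.

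Thyroid hormone receptors can bind direct repeats of the hexamer AGGTCA. It was searched on both strands from 250 bases before to 50 bases after annotated RefSeq start sites (GRCm38.p6), and 7 of the 8 genes, all but Thra, had 10 such windows. Of these, 2 held the hexamer, in Thrb at position −184 from the start site and in a window of Rxra, while 16.3% of 32851 windows of all genes did. The direct repeat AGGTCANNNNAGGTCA, which contains the hexamer, was in 0.0152% of windows and in none of these 10. Such a match is a description of letters and not a binding site.

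A list of 44 further genes of the pathway was read for context. Of these, 40 were tested in input, where 22 were higher and 18 lower in KO, and 39 in RPF, where 23 were higher and 16 lower, with 0 passing in input, RPF or TE. Their median log2 differences were 0.035 in input, 0.092 in RPF and −0.016 in TE. Unadjusted p-values under 0.05 were held by 1 gene in input, 4 in RPF and 1 in TE, where all genes tested gave 3.46%, 13.4% and 4.7%, so these counts are no more than the background.

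Of the 4 genes in RPF, 3 encode membrane transporters. RPF of Slco1a1, an organic anion transporter of hepatocytes that accepts iodothyronines, was 3947, 3333 and 3342 in WT and 2577, 2235 and 2432 in KO mice. All KO mice lay below all WT mice, as in 12.9% of genes tested in RPF, and the difference of −0.55 (SE 0.13) had an adjusted p of 0.0597 in limma. With litter as a term it passed, with an adjusted p of 0.00904, as did 3.26% of all genes (1.15% higher and 2.11% lower in KO). It also passed at a mean of at least 50 (0.873% of genes lower in KO), in RPF columns alone with litter as a term (2.4%) and without KO mouse 1 (1.36%), 4 of 17 alternatives in all. With GC and length trends removed the difference was −0.30, with adjusted p-values of 0.462 and, with litter as a term, 0.227, so that the call was lost. RPF of Slco1b2, the highest transporter of the list in input at 64.4 to 83.1 RPKM, differed by −0.34 (unadjusted p = 0.0271, adjusted p = 0.304, limma). RPF of Slc7a5, a carrier of large neutral amino acids, differed by 1.11 (unadjusted p = 0.0359, adjusted p = 0.339) from 7 to 30 reads per mouse.

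Slc16a10 thus differed from these transporters in the sign of its RPF difference, which was positive where those of Slco1a1 and Slco1b2 were negative, and these contrasts were not tested against each other. Of the 7 transporters of the list, 3 were higher in KO in RPF. Of the 3 carrier proteins, led by Alb at 5366 to 7822 RPKM, 1 was higher in RPF, and of 4 metabolic enzymes and factors tested, led by Sult1a1, 2 were. The other deiodinase genes Dio2 and Dio3 had 0 and at most 1 input count per mouse, so Dio1 supplied nearly all deiodinase transcripts counted.

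Corepressor and coactivator genes gave no call. Of 5 genes of the corepressor complex, 4 were higher in input and 2 in RPF. Tbl1x, their most abundant member per length, had an RPF difference of −0.35 (unadjusted p = 0.0456, adjusted p = 0.365, limma), and Gps2 a TE difference of −1.24 (unadjusted p = 0.0303, adjusted p = 0.998) from 4 to 21 input counts. Of 7 coactivators, led per length by Ncoa3, 1 was higher in input and 3 in RPF, and of the other retinoid X receptor genes Rxrb was the higher, at 1.04 to 1.45 RPKM, far below Rxra.

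Of 12 tested genes known to rise with the hormone in liver, 8 were higher in KO in input and 11 in RPF, with medians of 0.20 and 0.17 on the log2 scale, where 50.0% and 46.0% of all genes were higher. In TE 5 of the 12 were higher, with a median of −0.070, beside 48.7% of all genes. None passed on genotype alone. The list does not include Thrsp, Dio1 and Klf9, which also rise with the hormone. Their differences were −0.40, −0.052 and −0.0076 in RPF and 0.0029, −0.057 and −0.026 in input, so none was higher in RPF. Gpd2, the mitochondrial glycerol phosphate dehydrogenase, differed by 0.38 in input (unadjusted p = 0.0262, adjusted p = 0.999, edgeR). Pck1, which encodes the gluconeogenic enzyme PEPCK and was the most abundant per length, had RPF values of 12800, 23780 and 40370 in WT and 22210, 40520 and 41600 in KO mice. Its genotypes overlapped and litter 1 was lowest in both, and the difference of 0.54 had an adjusted p of 0.702, which became 0.0415 with litter as a term (limma), the only 1 of 17 alternatives in which it passed. With litter as a term its adjusted p was 0.0522 in RPF columns alone and 0.203 after removal of GC and length trends, and without WT mouse 1 the difference was 0.11. Me1, the malic enzyme long used as a hormone readout beside Thrsp, had 522.5 ± 145.2 in WT and 379.8 ± 134.8 in KO livers in normalized RPF (SD, n = 3), and 41.4 ± 6.70 and 34.8 ± 7.76 CPM in input. It was the gene of the 12 that was lower in KO in RPF. Its genotypes overlapped in both assays, with differences of −0.48 in RPF (adjusted p = 0.441, limma) and −0.25 in input (adjusted p = 0.999, edgeR).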

How the data were processed

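Livers of 3 WT and 3 KO mice gave 12 libraries. The authors trimmed reads with BBDuk, aligned input to mm10 with STAR 2.7.3a, kept unique reads and deposited featureCounts counts of read pairs over exons, by strand. For RPF they kept fragments of footprint length, removed rRNA and used RiboToolkit with a single location per read and duplicates kept. The deposited table holds a normalized signal per library, in which whole reads divided by 1 factor per library were recovered for 100% of values (within 0.01) and no gene length enters. Its columns of the authors' comparison (log2 fold change, p-value, adjusted p-value) were not used. No column lacked a sample (0).

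Input was tested with edgeR 4.0.16 (R 4.3.3; TMM, filterByExpr, robust quasi-likelihood test, genotype as the term). CPM use TMM library sizes. For RPF and TE, limma 3.58.1 (trend, robust) was fitted to log2(value + 1) as 4 group means, TE being the interaction. This fit does not pair the input and RPF libraries of a mouse, whereas the mouse block for TE does. Genes needed a mean of 10 or more in both assays. Differences on that scale understate changes of low genes. P-values are two-sided, with Benjamini-Hochberg adjustment over all genes tested at 0.05. Litter is not in the model the study describes, so it enters here as an alternative (replicate block). Intervals are 95%. With 3 mice per group an exact permutation test cannot go below p = 0.10, so none is given.

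Pairing comes from the labels, which call same-numbered mice littermates. For input, correlations of their deviations from the group means were 0.18 to 0.21, and for RPF 0.26 to 0.36. Mice of other litters and the other genotype gave −0.21 to 0.0056 and −0.36 to 0.12.

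Named were the 8 genes, Mettl5, and from the pathway lists those past the threshold or else those with an unadjusted p under 0.05. Also named were the most abundant of each pathway list, the 5 genes most like Thrsp, and the lists of lipogenic and clock genes set beside it. The clock list was planned for Klf9 and was set beside Thrsp instead. Dbp, Per2 and Tef (with values), Mlxipl, Me1, Dio2 and Dio3 were singled out after their values were seen. Members and lists were chosen with earlier results of these data known. Coding lengths are of the longest coding sequence in the mm10 annotation. Alternatives were DESeq2 1.42.0, other size factors and filters, pseudocounts of 0.1 and 5, centring, edgeR on whole RPF reads, litter or mouse blocks, removal of GC and length trends, and leaving out each mouse. The fits were also run on simulated counts with the same spread setting for every gene and no litter effect. That run does not bear on litter structure or on genes that vary widely between mice.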

Additional observations from a re-analysis of the deposited data

How the results depend on the processing

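None of the 8 genes passed in input, RPF or TE under any alternative run, and 408 of 447 alternative values kept their direction and side of the threshold. With the replicate block of litter Thrsp input was −0.077 and Rxra input 0.0070, and Rxra input was 0.0067 with no count filter and 0.0086 at a mean of at least 50. Removal of GC and length trends, with and without the block, gave Thra RPF −0.040 and Klf9 TE −0.085. In edgeR on whole reads Dio1 RPF was 0.20 and Klf9 RPF 0.039, and with centred columns Klf9 RPF was 0.0052. The causes were not tested. Leaving out 1 mouse at a time turned the direction of 11 differences, which then ranged in input from −0.47 to 0.28 for Dio1, −0.27 to 0.14 for Klf9, −0.19 to 0.028 for Ncor1, −0.12 to 0.060 for Rxra, −0.094 to 0.096 for Slc16a10 and −0.73 to 0.41 for Thrsp. In RPF they ranged from −0.57 to 0.52 for Dio1, −0.18 to 0.10 for Klf9 and −0.15 to 0.29 for Thra, and in TE from −0.10 to 0.32 for Klf9 and −0.40 to 0.0086 for Thra. RPF of Slc16a10 stayed at 0.34 to 0.53 and of Thrb at 0.18 to 0.33, without a call. Pathway genes passing in RPF numbered 1 at a mean of at least 50 (Slco1a1), 2 with the replicate block (Pck1 and Slco1a1), 1 with the replicate block on RPF columns alone (Slco1a1, an alternative chosen after seeing the data), and 0 to 1 without 1 mouse (Slco1a1 without KO mouse 1). Removal of GC and length trends left 0 with and without the block. The block changed no other call among these genes. Uncalled RPF differences also moved in size: Rxra was 0.073 with GC and length trends removed and 0.057 to 0.39 without 1 mouse, Thrsp −0.89 to −0.12 and Ncor1 0.049 to 0.17 without 1 mouse. Low counts limit Thra, Slc7a5, Gps2, Dbp and Per2, and the spread between mice limits Thrsp and Dio1.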
